A study of Homo sapiens with 2 samples.

Results

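The nuclear genes for subunits of the respiratory chain and of ATP synthase were followed in Ca9-22 cells, a line from a squamous carcinoma of the gingiva. Probe sets were taken if their only annotated gene symbol began with a subunit prefix of complex I (NDUFA, NDUFB, NDUFC, NDUFS, NDUFV), III (UQCR), IV (COX4 to COX8) or V (ATP5), or named cytochrome c1 (CYC1) or a succinate dehydrogenase subunit (SDHA, SDHC, SDHD). Assembly factors, antisense transcripts and pseudogenes were left out. This gave 152 probe sets for 78 genes, of 19775 genes with a probe set of their own. A gene was called above the floor if at least 1 of its probe sets exceeded the median of an array, and 73 of the 78 did, of 12729 such genes in all. A further 10 probe sets carried a subunit symbol together with another symbol, so the genes behind them are not named here, and some subunits of the 5 complexes were not analysed here.

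The study set Ca9-22 cells carrying a stably integrated RUNX2 vector beside cells of the line carrying the empty vector, with 1 array each. RUNX2 is a runt-domain transcription factor known from bone cell differentiation. Cells of both groups were selected with blasticidin for 2 weeks before total RNA was collected. With 1 array each, no test could be made and no difference has a replicate check, and variation between cultures cannot be told apart from the vector. Whether each vector stands for 1 clone or a pool of transduced cells is not given in the sources used here. Values are intensities in arbitrary units after the RUNX2 array was multiplied by 0.966 to equalise the trimmed means of the arrays, and every ratio is RUNX2 over empty vector.

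The 3 RUNX2 probe sets above the floor went both ways, with 854, 353 and 433 on the RUNX2 array against 204, 102 and 1746 on the empty vector array, so the target gene does not settle the array labels and every direction rests on the labels. Squamous epithelial markers were present on both arrays, with KRT5 at 12580 on the RUNX2 array and 8842 on the empty vector array. In all, 4 of 4 such markers with a probe set of their own were above the floor. KRT14 had 1579 on the RUNX2 array and 586 on the empty vector array, 2.69-fold higher. DSG3 had 1819 and 1919 and CDH1 had 3580 and 3545, both nearly level. None of the 3 leukocyte and none of the 3 striated muscle markers was above the floor. Of the fibroblast markers COL1A1 was above it, at 1553 on the RUNX2 array and 1937 on the empty vector array in its brightest probe set. Of its 5 probe sets above the floor, the others read 59.3 to 152 on the RUNX2 array and 71.4 to 200 on the empty vector array. COL1A2 and DCN were not above the floor. Of the endothelial markers VWF (55.2 on the RUNX2 array and 75.02 on the empty vector array) and PECAM1 (55.5 and 69.4) lay close to the floor and CDH5 below it. The part of RNA from other cell types in the values below was not tested.

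The respiratory chain passes electrons from NADH through complex I, and from succinate through complex II, to ubiquinone, then through complex III and cytochrome c to complex IV, which reduces oxygen. Complexes I, III and IV pump protons across the inner mitochondrial membrane, and ATP synthase, complex V, uses the return flow to make ATP. The nuclear genome encodes most of the subunits and the mitochondrial genome the rest, and the transcription factors NRF1, GABPA (also called NRF2) and YY1 are known to bind promoters of many of the nuclear genes.

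For 66 of the 78 genes a RefSeq promoter of build GRCh38.p14 was at hand, reaching from 250 bases before to 50 bases after the annotated start. The promoters of genes at either end of the range of ratios are shown because they let the motif content at both ends be read. They are SDHD (chr11:112086623-112086922, plus strand) and ATP5MC2 (chr12:53676034-53676333, minus strand), the lowest, and NDUFV2 (chr18:9102449-9102748, plus strand) and NDUFA11 (chr19:5903741-5904040, minus strand), the highest. Capitals mark exact matches, on either strand, to GCGCANGCG for NRF1, CCGGAAGT for GABPA or AAGATGGCG for YY1.
SDHD: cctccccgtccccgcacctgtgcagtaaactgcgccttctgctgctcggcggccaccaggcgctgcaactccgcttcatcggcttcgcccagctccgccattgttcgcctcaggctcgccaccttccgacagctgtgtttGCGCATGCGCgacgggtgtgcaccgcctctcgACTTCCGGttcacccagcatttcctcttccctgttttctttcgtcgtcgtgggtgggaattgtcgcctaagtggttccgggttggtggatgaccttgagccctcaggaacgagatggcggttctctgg
ATP5MC2: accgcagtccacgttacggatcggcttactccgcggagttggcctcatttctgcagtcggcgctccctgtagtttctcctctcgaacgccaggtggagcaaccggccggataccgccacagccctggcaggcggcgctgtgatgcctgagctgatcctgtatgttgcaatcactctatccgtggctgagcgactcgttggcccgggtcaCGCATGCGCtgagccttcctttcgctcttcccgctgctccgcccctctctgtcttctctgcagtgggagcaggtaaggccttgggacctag
NDUFV2: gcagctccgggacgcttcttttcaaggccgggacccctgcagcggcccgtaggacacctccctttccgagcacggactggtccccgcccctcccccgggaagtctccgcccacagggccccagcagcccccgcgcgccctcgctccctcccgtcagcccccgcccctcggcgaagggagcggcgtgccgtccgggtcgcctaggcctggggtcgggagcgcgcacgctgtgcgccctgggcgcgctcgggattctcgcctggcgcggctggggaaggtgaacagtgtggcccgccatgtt
NDUFA11: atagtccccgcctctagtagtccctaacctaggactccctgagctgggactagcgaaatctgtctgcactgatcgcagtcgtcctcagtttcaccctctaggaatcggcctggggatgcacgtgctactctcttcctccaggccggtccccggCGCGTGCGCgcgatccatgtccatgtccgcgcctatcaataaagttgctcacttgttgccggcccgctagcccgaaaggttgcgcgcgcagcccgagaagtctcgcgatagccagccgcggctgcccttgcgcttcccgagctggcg
The SDHD window held overlapping NRF1 matches on both strands, from base -110 to base -101, and a GABPA match from -78 to -71, where base 0 is the annotated start. The ATP5MC2 window held an NRF1 match from -41 to -33 and the NDUFA11 window one from -97 to -89. No match was found in the NDUFV2 window, which says only that these letters are not in it. The NRF1 letters occurred in 22 of the 66 subunit promoters (33.3%), in 7.52% of all 35116 promoters of the same length and in 14.5% of the 10289 promoters of genes above the floor. The GABPA letters occurred in 9 (13.6%), against 4.14% of all promoters and 8.51% of those of genes above the floor. The YY1 letters occurred in 7 (10.6%), against 1.75% and 3.81%. The 31 genes above the floor with at least 1 of the 3 motifs had a median log2 ratio of 0.02, and the 32 without had 0.05. The NRF1 and YY1 motifs were first searched with 1 more letter at the 3' end and were shortened after the values were seen. The longer NRF1 motif occurred in 16 subunit promoters (24.2%), against 5.78% of all promoters and 11.5% of those of genes above the floor, and the longer YY1 motif in 6 (9.09%), against 1.202% and 2.71%. With the longer motifs the ATP5MC2 window held no match, and the medians were 0.02 in 26 genes with a motif and 0.04 in 37 without. A match is a description of the letters and not a binding site.

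Subunit transcripts were nearly level between the arrays. Of the 73 genes, 35 had values within 10% of each other on the RUNX2 and empty vector arrays (47.9%), against 30.6% of all genes above the floor. None of the 73 differed by 2-fold, a size reached upwards by 1.41% and downwards by 1.47% of all genes. The smaller threshold used here was a ratio of 5 to 4, or a log2 ratio of 0.32 either way, and genes beyond it are said to pass. By this rule 4 subunit genes were higher and 5 were lower in the RUNX2 array (5.48% and 6.85%), where 15.2% of all genes were higher and 20.6% lower, 35.8% together. The median log2 ratio of the 73 genes was 0.03, beside -0.06 over all genes, and 53 of the 73 lay above the median of all genes. The log2 ratios of the subunit genes ran from -0.46 in SDHD to 0.38 in NDUFA11 with an SD of 0.20 across genes, beside an SD of 0.42 across all genes.

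Most of these genes gave strong signals, and the comparison was repeated with the 2359 genes whose mean level on the arrays was at least 1000, a choice made after the values were seen. Of the 64 subunit genes above that level 12.5% passed in either direction, against 32.6% of those genes. The median log2 ratio of the 64 was 0.04, beside -0.01 over the 2359 genes, a smaller gap than that to all genes. Across the 73 genes the ratio had little relation to the mean level (Pearson r = 0.05, Spearman rho = -0.00), where all points share the same arrays. The counts depended on the choice of scaling. Without a scaling factor 9 subunit genes passed upwards and 4 downwards (17.8%, against 35.1% of all genes under that scaling), and with equal medians of the arrays 13 did so upwards and 2 downwards (20.5%, against 35.2%). Under all 5 scalings tried, NDUFA11, NDUFV2, NDUFB8 and NDUFA6 passed upwards and SDHD and ATP5MC2 downwards.

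**Figure D1:**
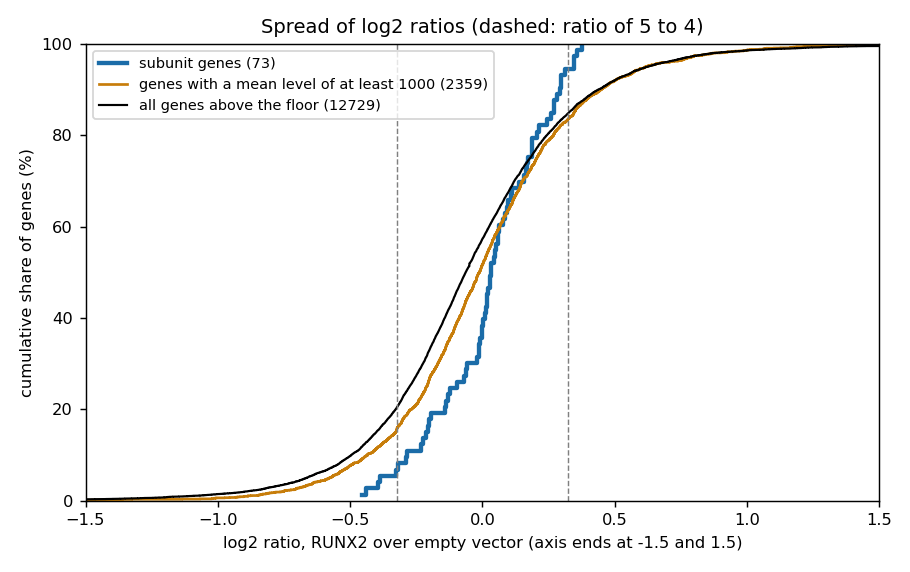
Cumulative share of genes (y axis, %) against the log2 ratio of RUNX2 over empty vector (x axis) for the 73 subunit genes, the 2359 genes with a mean level of at least 1000 and all 12729 genes above the floor. The subunit curve climbs within -0.46 and 0.38, and both other curves reach further on either side.

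Complex I, which oxidises NADH, held all 4 of the genes that passed upwards and 1 that passed downwards. These were 12.1% and 3.03% of its 33 genes, where 15.2% of all genes passed upwards and 20.6% downwards. The place of all upward genes in complex I did not hold under every scaling. Without a scaling factor 6 of the 9 genes that passed upwards were in complex I and 3 in complex V (ATP5IF1, ATP5MC1 and ATP5MC3), and with equal medians 7 of 13 were in complex I, 4 in V, 1 in IV (COX7B) and 1 in II (SDHC). The median log2 ratio of its 33 genes was 0.09, with 22 above 0 and 11 below. NDUFA11, an accessory subunit in the membrane arm, had 3663 on the RUNX2 array and 2821 on the empty vector array, 1.30-fold higher, and 2397 and 1759 in its other probe set above the floor. NDUFV2, a core subunit of the NADH-binding module that carries an iron-sulphur cluster, had 950.4 on the RUNX2 array and 741 on the empty vector array, 1.28-fold higher in its single probe set above the floor. NDUFA6, which anchors an acyl carrier protein to the complex, had 1772 and 1395, 1.27-fold higher, and 301.7 and 199.6 in another probe set, 1.51-fold higher. Both probe sets of NDUFA11 and of NDUFA6 were thus higher on the RUNX2 array.

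NDUFB8, a membrane arm subunit often used as an immunoblot marker of complex I, had 1503 on the RUNX2 array and 1183 on the empty vector array, 1.27-fold higher. Its other bright probe set read 1309 and 1080.1, and a dim one read 79.0 and 92.4, lower on the RUNX2 array. NDUFB8 did not pass with the mean over its probe sets, at 0.13, or without probe sets ending in _x_at or _s_at, at 0.28. NDUFA10, an accessory subunit related to nucleoside kinases, had 966 on the RUNX2 array and 1212 on the empty vector array and passed the threshold narrowly, at 1.2537-fold lower. Under the deposited scale and under equal medians NDUFA10 did not pass, with log2 ratios of -0.28 and -0.23, nor with the mean over its probe sets, at -0.23, or with the floor added as an offset, at -0.315.

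The classes of complex I subunits were not alike in their medians. The 12 NDUFB and NDUFC genes, which encode accessory subunits of the membrane arm, had a median of 0.18 on the log2 scale with 9 of 12 above 0, and this median lay between 0.17 and 0.27 over the 5 scalings. NDUFB3 had 1229 on the RUNX2 array and 989 on the empty vector array, and missed the threshold at 1.2427-fold higher. NDUFB2 had 3179 and 2597, with log2 ratios of 0.29 and 0.42 in its bright probe sets and of at least 0.23 in a dim one, whose empty vector value did not reach the floor. Below 0 among them were NDUFC1 at -0.23, NDUFB5 at -0.23 and NDUFB4 at -0.01. Without probe sets ending in _x_at or _s_at, the lean of the NDUFB and NDUFC genes above 0 was not seen. Those still read had 0.42 in NDUFB2, 0.28 in NDUFB8 and 0.00 in NDUFB7. Below 0 were then NDUFB1 at -0.04, NDUFB5 and NDUFC1 at -0.23 each, and NDUFB4 at -0.35. The 13 NDUFA genes, accessory subunits placed in both arms, had a median of 0.04, from NDUFA10 at -0.33 to NDUFA11 at 0.38. In NDUFA5 the log2 ratio was -0.29, at 1800 on the RUNX2 array and 2198 on the empty vector array. NDUFAB1, the mitochondrial acyl carrier protein, had 0.08.

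The 5 core genes of complex I that could be read, which carry the flavin and the iron-sulphur clusters or frame them, had a median log2 ratio of -0.06, and that sign turned to 0.03 under equal medians. NDUFV1, which binds NADH and flavin, had 1342 on the RUNX2 array and 1477 on the empty vector array. NDUFS7, which holds the last iron-sulphur cluster before ubiquinone, had 561 and 646. NDUFS1, the large iron-sulphur subunit, had 666 and 617, and NDUFS3 had 702 and 733. NDUFV2 and its partner NDUFV1 therefore had log2 ratios of opposite sign in their brightest probe sets, 0.36 and -0.14, while a dim probe set of NDUFV1 had 0.02. Among the 3 accessory NDUFS and NDUFV genes, NDUFS6 had 0.26, NDUFV3 0.06 and NDUFS4 -0.20.

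**Figure D2:**
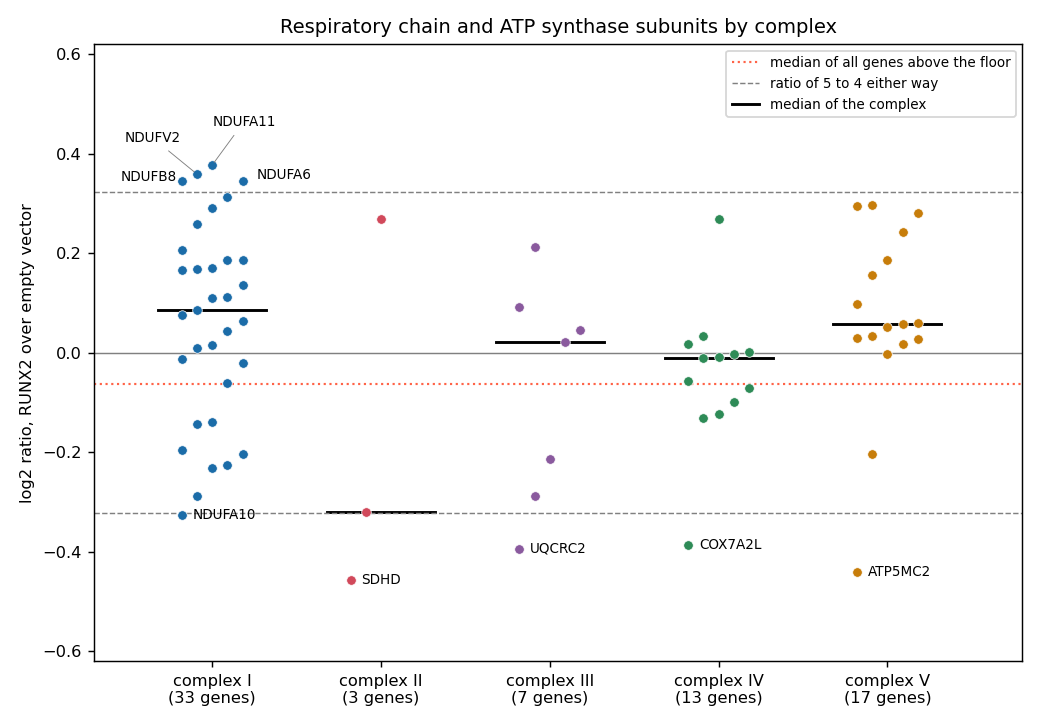
Log2 ratio of RUNX2 over empty vector (y axis) of each subunit gene above the floor, by complex (x axis), 1 point per gene from its brightest probe set. Black bars are medians of the complexes, dashed lines mark a ratio of 5 to 4, and the dotted line is the median of all genes (-0.06). Points past a dashed line are named, 4 upwards, all in complex I, and 5 downwards, 1 in each complex. The 4 are 12.1% of the complex I genes, where 15.2% of all genes passed upwards. Under equal medians of the arrays, not plotted, 6 of 13 genes past the upper line lay outside complex I, and SDHD and ATP5MC2 alone passed the lower one.

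Complex II, succinate dehydrogenase, links the citric acid cycle to the chain, and its 3 genes did not go one way. SDHD, a membrane anchor subunit, had 1644 on the RUNX2 array and 2256 on the empty vector array, 1.37-fold lower, the lowest ratio among the 73 genes. Its other probe set read 46.1 on the RUNX2 array, which is below the floor, against 74.6 on the empty vector array, and was thus at least 1.44-fold lower. SDHA, the flavoprotein that oxidises succinate, had 1136 and 1418, and missed the threshold at 1.2486-fold lower. SDHC, the other membrane anchor, was higher on the RUNX2 array, at 1200.4 against 996 on the empty vector array. Of its 7 probe sets above the floor, the 4 brightest had log2 ratios from 0.23 to 0.33, and the 3 dimmest, between 68.1 and 214, had -0.03 to -0.29. The partner anchors SDHC and SDHD therefore had opposite signs in their brightest probe sets. The 4 brightest SDHC probe sets all end in _x_at or _s_at, and the 3 dimmest do not. Without probe sets of that kind SDHC had a log2 ratio of -0.15, the same sign as SDHD.

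Complex III, which oxidises ubiquinol and reduces cytochrome c, had 7 genes with a median log2 ratio of 0.02. The core proteins, large subunits on the matrix side, were on the low side. UQCRC2 had 2638 on the RUNX2 array and 3464 on the empty vector array, 1.31-fold lower, and 1836 and 2346 in another probe set, 1.28-fold lower, while a dim one had 92.0 and 86.4. UQCRC1 had 945 and 1153, with a log2 ratio of -0.29. CYC1, the cytochrome c1 subunit that hands electrons to cytochrome c, had 1257 and 1179. Of the small subunits, UQCRQ had a log2 ratio of 0.21, UQCR10 0.05, UQCR11 0.02 and UQCRB, which lies at the ubiquinone site, -0.21. UQCRC2 did not pass under equal medians, at -0.30, or with the mean over its probe sets, at -0.22.

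Complex IV, cytochrome c oxidase, had 11 of its 13 genes above the floor within 10% between the arrays, the largest share of the 5 complexes. Its median log2 ratio was -0.01 and had no settled sign, from -0.03 after quantile normalization to 0.08 with equal medians. COX6A1 had 7994 on the RUNX2 array and 7989 on the empty vector array, COX6C had 8840.5 and 8854, and COX7A2 had 5821 and 5867. COX4I1, the ubiquitous form of the regulatory subunit COX4, had 7070.5 and 7358. The 2 genes outside the 10% band went apart. COX7A2L, which encodes a factor that joins complexes III and IV into a supercomplex, had 3385 on the RUNX2 array and 4422 on the empty vector array, 1.31-fold lower in its single probe set, and it did not pass under equal medians, at -0.29. COX7B had 4280.3 and 3552, 1.21-fold higher, and 80.1 and 60.4 in its other probe set.

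Tissue forms of complex IV subunits were near or below the floor. The heart and muscle forms COX6A2 (28.4 on the RUNX2 array and 35.3 on the empty vector array) and COX7A1 (37.1 and 36.5) were below it, as were the muscle markers MYH7, ACTA1 and CKM. The testis forms COX7B2 and COX8C were below the floor as well, while COX6B2, another testis form, had 86.5 and 94.7. COX4I2, the alternative form of COX4 known from lung, stood just above the floor at 55.7 and 56.1. COXFA4, a subunit of complex IV formerly named NDUFA4 and so outside the prefix rule, had 1833 on the RUNX2 array and 1566 on the empty vector array, and its paralogue COXFA4L2, formerly NDUFA4L2, lay below the floor.

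ATP synthase, complex V, had 17 genes with a median log2 ratio of 0.06. Of these 14 lay above 0 (82.4%), against 42.6% of all genes and 48.4% of the 2359 genes with a mean level of at least 1000. The median lay between 0.05 and 0.15 over the 5 scalings. The lean above 0 rested in part on probe sets ending in _x_at or _s_at. Without them ATP5F1C had -1.02, ATP5PD -0.73, ATP5MJ -0.36, ATP5MG -0.26 and ATP5IF1 -0.08. Above 0 were then ATP5MC3 at 0.33, ATP5PB at 0.24 or more and ATP5MK at 0.19. ATP5F1E had 0.05, and ATP5F1B and ATP5PO had 0.03 each. The 5 genes of the F1 sector, the catalytic head with its rotor, had the narrowest spread of any class with more than 2 genes (SD 0.02 across genes), from ATP5F1C at -0.00 to ATP5F1A at 0.06. ATP5F1B, the catalytic beta subunit, had 2908 on the RUNX2 array and 2849 on the empty vector array. A dim probe set of the rotor subunit gene ATP5F1C nevertheless read 152 and 308, 2.03-fold lower, where its 3 bright ones had log2 ratios of -0.01 to 0.07. The 4 genes of the peripheral stalk, which holds the head still, had log2 ratios from 0.02 in ATP5PB to 0.24 in ATP5PF.

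The 3 genes for the c ring, the proton-driven rotor in the membrane, did not share a sign, although they are known to encode the same mature protein with different import peptides. ATP5MC2 had 1978 on the RUNX2 array and 2683 on the empty vector array, 1.36-fold lower. ATP5MC1 had 1285 and 1048, 1.23-fold higher. ATP5MC3 had 5948 and 4895, 1.21-fold higher, and its other probe sets had log2 ratios of 0.33 and 0.39. The signs of all 3 were kept under the 5 scalings. ATP5MC2 and ATP5MC1 each had a single probe set above the floor, ending in _s_at, so neither could be read without such probe sets. ATP5IF1, the inhibitor that blocks ATP hydrolysis by the enzyme, had 1175 and 957 in its brightest probe set, 1.23-fold higher, 1060.3 and 986 in the next and 107 and 113 in a dim one. ATP5MJ, a small membrane subunit, had -0.20, and ATP5MF had a single named probe set, which was below the floor.

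**Figure D3:**
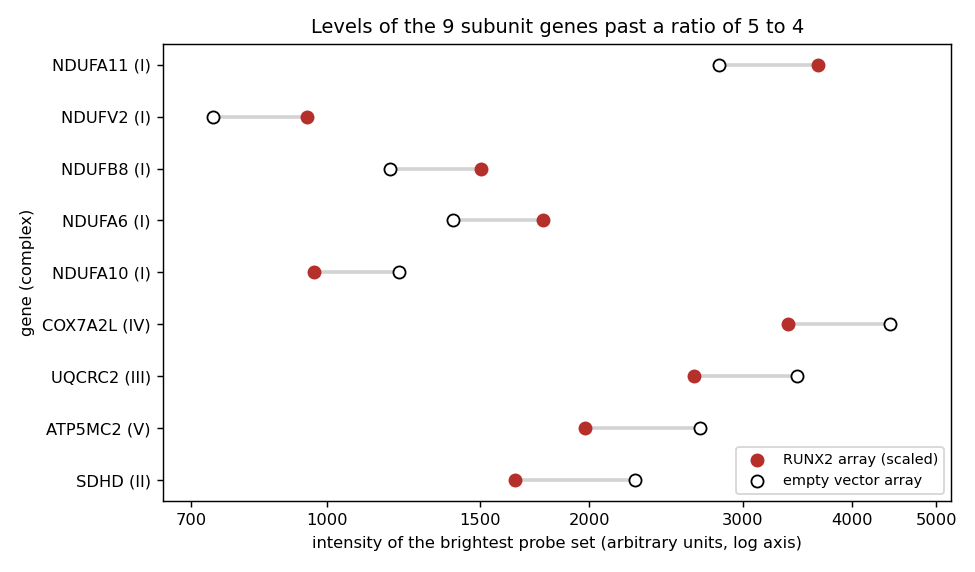
Intensity of the brightest probe set (x axis, arbitrary units, log scale) of the 9 subunit genes past a ratio of 5 to 4 (y axis, complex in brackets) on the RUNX2 array (filled red) and the empty vector array (open). The 4 genes with the red point to the right belong to complex I, and the other 5, from SDHD (1644 and 2256) to NDUFA10 (966 and 1212), have it to the left.

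Probe sets of 1 gene carry the same gene symbol, and their disagreement gives the only spread available within the arrays. It is no replicate error, and whether they read the same transcript was not tested. Of the 73 genes, 35 had 2 or more probe sets above the floor, and for 19 of these all probe sets had the same sign. The log2 ratios of probe sets of 1 subunit gene had a pooled SD of 0.24, beside 0.29 over 6165 genes of all kinds. Both pooled SDs took in every probe set above the floor, dim ones included, such as that of ATP5F1C at -1.02. The SD of 0.20 between subunit genes used only the brightest probe set of each gene, so its size cannot be set directly against them. In 2 genes another probe set passed the threshold the other way. These were ATP5PD, a stalk subunit, at 0.10 in its brightest and -0.73 in a dim probe set (138 on the RUNX2 array and 229 on the empty vector array), and COX5A at -0.12 and 0.68 (169 and 105). Neither was among the 9 genes past the threshold. The brightest probe set had an ID ending in _x_at or _s_at, which marks probes that can match several transcripts, in 42 of the 73 genes, and subunit genes are known to have many processed pseudogenes. Without such probe sets 55 genes were left, of which 7 passed upwards and 8 downwards (27.3% in all, against 37.3% of all genes under the same rule).

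**Figure D4:**
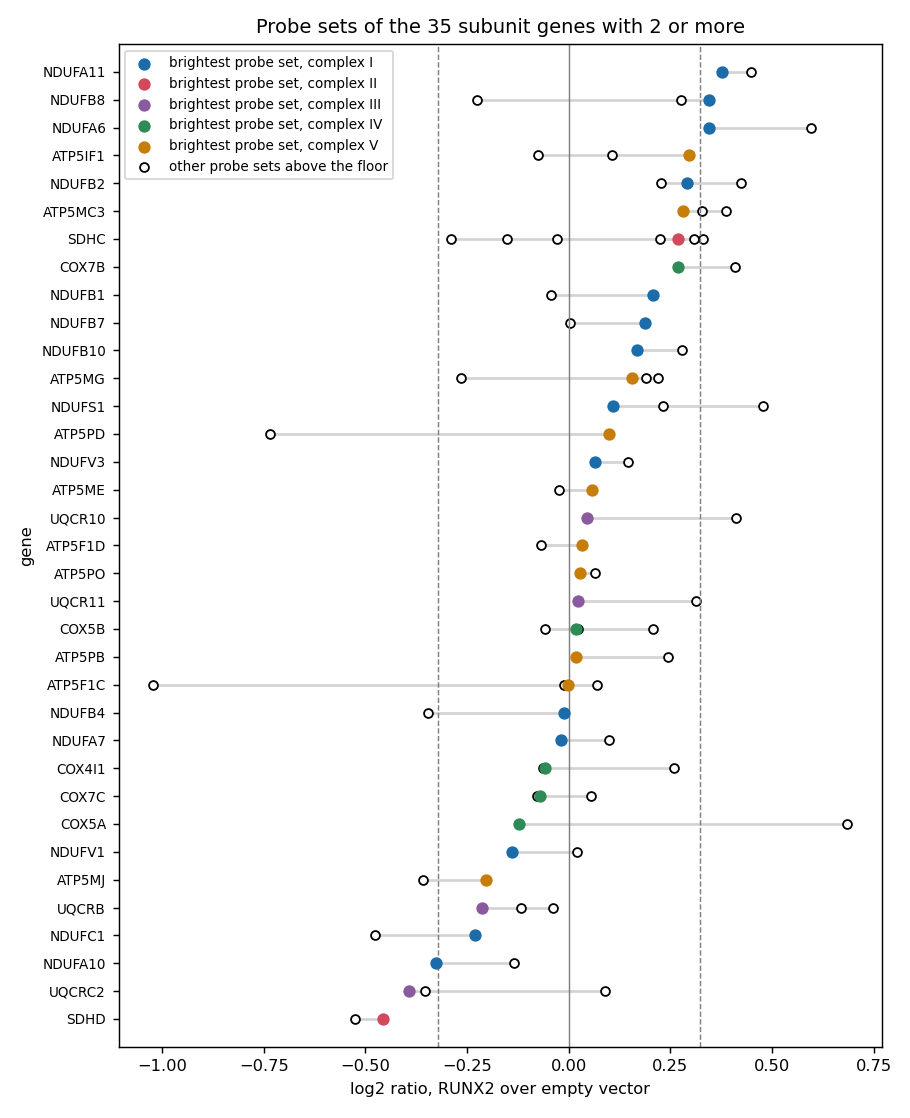
Log2 ratio of RUNX2 over empty vector (x axis) of every probe set above the floor for the 35 subunit genes with 2 or more (y axis). Filled points are the brightest probe set, coloured by complex, and open points the others, with dashed lines at a ratio of 5 to 4. Probe sets of SDHD and NDUFA11 lie close together, and those of ATP5F1C, ATP5PD and COX5A lie far apart.

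Genes that build, feed or regulate the chain were taken from 8 lists, chosen with earlier results of these data known. The SD of the log2 ratio across genes was 0.24 to 0.44 in 7 of the lists and 0.13 in the subunits encoded by the mitochondrial genome, beside 0.20 in the 73 subunit genes. The counts in each list stand beside the 15.2% of all genes that passed upwards and the 20.6% that passed downwards, 35.8% together. Of 18 assembly factors of complex I, 4 passed upwards and 0 downwards, with a median log2 ratio of 0.08. NDUFAF6 had 849 on the RUNX2 array and 512 on the empty vector array, 1.66-fold higher, and 97.3 and 61.8 in its other probe set. NDUFAF8 had 1656 and 1124, NDUFAF4 had 867 and 645 and NDUFAF3 had 804 and 626. The lowest of the list was COA1 at -0.25, with 0.23 and -0.42 in other probe sets. Of 27 assembly factors of complexes III and IV, 6 were higher and 6 lower (22.2% each). SCO2, a copper chaperone of complex IV, had 941 and 517, 1.82-fold higher, and COX18, which inserts a complex IV subunit into the membrane, had 308.0 and 432, 1.40-fold lower. Of 8 assembly factors of complexes II and V, 1 was higher and 3 were lower, with a median of -0.24. Here SDHAF4 had 389.9 on the RUNX2 array and 655 on the empty vector array, 1.68-fold lower, and SDHAF2, which helps to attach flavin to SDHA, had 654 and 466, 1.40-fold higher.

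Of 7 subunit genes of the mitochondrial genome, 0 passed either way and 1 lay above 0 (14.3%, against 42.6% of all genes). Their median log2 ratio was -0.10, beside -0.06 over all genes, and after quantile normalization both medians were -0.05. The lowest was COX3 at -0.26, and the highest was COX1 at 0.12, with 22022 on the RUNX2 array and 20314 on the empty vector array. Among 15 genes of the electron carriers ubiquinone, cytochrome c and the electron transfer flavoprotein, 3 were higher and 3 lower. PDSS1, which makes the ubiquinone side chain, had 289.6 and 138, 2.10-fold higher, and 66.8 and 61.0 in its other probe set. CYCS, cytochrome c, had 6212 and 4903, with all 3 probe sets higher, and COQ8A, a factor of ubiquinone synthesis, had 325 and 595, 1.83-fold lower. Of 15 genes of the citric acid cycle and pyruvate dehydrogenase, 1 was higher (DLD, at 1831 and 1346) and 1 lower (SUCLG2, a subunit of succinyl-CoA ligase, at 605 and 896).

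Regulators of the subunit genes and of mitochondrial DNA had 4 higher and 3 lower of 15 above the floor. TFAM, which packages mitochondrial DNA and takes part in its transcription, had 871 on the RUNX2 array and 644 on the empty vector array. Its log2 ratios ran from 0.40 to 0.61 over 4 probe sets. PPRC1 and PPARGC1B, coactivators of respiratory genes, had 0.50 each, with 0.02 in the other probe set of PPARGC1B, and PPARGC1A was below the floor. TFB1M, which methylates mitochondrial ribosomal RNA, had 378 and 664, 1.76-fold lower. NRF1 itself had 0.21 in its brightest probe set, 0.56 in another and -0.02, a bound, in the third. GABPA had -0.21 and 0.05. GABPB1, also among the 4 higher, had 0.46 in its brightest probe set and 0.91 in the other. YY1 had 0.08 in its brightest probe set and from -0.60 to -0.09 in the other 4 above the floor, 2 of which passed downwards (729 on the RUNX2 array and 1102 on the empty vector array, and 541 and 735). Of 13 genes of protein import and the outer membrane porins, 5 were higher and 1 lower (38.5% and 7.69%). The import channel gene TOMM40 had 177 and 125, 1.42-fold higher, and the import receptor gene TOMM20 had 5209 and 6724, 1.29-fold lower.

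**Figure D5:**
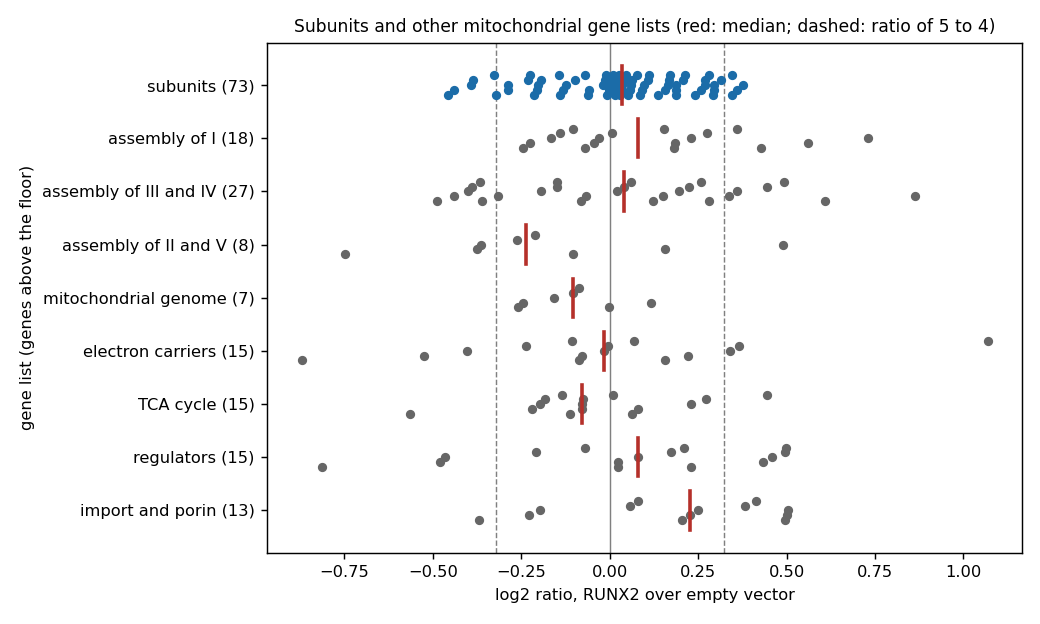
Log2 ratio of RUNX2 over empty vector (x axis) of the 73 subunit genes and of 8 other mitochondrial gene lists (y axis, with the number of genes above the floor), 1 point per gene. Red bars are medians and dashed lines mark a ratio of 5 to 4. The subunits span -0.46 to 0.38, while the electron carriers span -0.87 to 1.07.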

How the data were processed

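Each group's biotin-labelled cRNA went on 1 Affymetrix array, per the labels' protocols. A single intensity per probe set, on a linear scale, is what the authors deposited, made with MAS5 (version and scaling target not given) per the submitters' processing notes. Genome build is not given in the sources used here.

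The members and lists were chosen with earlier results of these data known. Samples were grouped by title. Control probe sets (62 of 54675) were left out. The RUNX2 array was scaled to equal the 2% trimmed mean (206 before scaling, against 199 on the empty vector array). The floor was each array's median, 51.8 (RUNX2) and 55.3 (empty vector). Values below it were raised to it, and such a ratio is a bound. The number of arrays limits the precision.

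Platform symbols were taken for 41091 probe sets with 1 symbol, of which 41037 were matched by Entrez ID to a RefSeq table (GRCh38.p14), while 1801 had several symbols and 11721 none. The brightest probe set above the floor (highest mean log2 intensity) stood for its gene.

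Named genes were, by complex, the highest and lowest ratios, all members past a ratio of 5 to 4, tissue isoforms and the widest ratio in each list. A few others were picked with their values in view. The alternatives comprised other scalings (none, equal medians, quantile, loess with span 0.4), floors (25th or 75th percentile, none, an offset), the mean over probe sets, probe sets without _x_at or _s_at, the platform symbol alone, thresholds of 1.5-fold and 2-fold, and former NDUFA4 genes in complex I or, added later, IV. Promoter motif letters were chosen, and those of NRF1 and YY1 shortened by 1 letter, after values were seen. Scripts (Python 3.11.15, pandas 2.3.3, statsmodels 0.14.6) were tested on simulated data.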

Additional observations from a re-analysis of the deposited data

How the results depend on the processing

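The median log2 ratio of all subunit genes stayed between 0.01 and 0.13 over every alternative tried, and the medians of complexes I, II, III, IV and V moved by no more than 0.1, with those of I, II, III and V keeping their sign and that of IV not. The count of genes past a ratio of 5 to 4 upwards was 4, and it was 9 without a scaling factor, 13 with equal medians and 7 without _x_at and _s_at probe sets. In both directions together 17.8% of subunit genes passed without a scaling factor, 20.5% with equal medians and 27.3% without those probe sets, against 35.1%, 35.2% and 37.3% of all genes. The count downwards was 5, and it was 2 with equal medians and 8 without _x_at and _s_at probe sets. At thresholds of 1.5-fold and 2-fold both counts were 0. None of the 9 genes past that ratio changed sign under any alternative that could read it. SDHD ran from -0.49 to -0.36, NDUFB8 from 0.13 to 0.44 and UQCRC2 from -0.40 to -0.22. Of the 710 values of single genes under the alternatives, 12 moved by more than the SD between probe sets of 1 gene over all genes (0.29), 10 of them without _x_at and _s_at probe sets, where ATP5F1C went to -1.02. The cause was not tested. No paired analysis was possible because each group had 1 array. Signal limits the tissue isoforms, which lay near or below the floor.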
